A study of Mus musculus with 30 samples.

Results

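The comparison is between CD8 T cells of the spleen from Prmt5 conditional knockout mice (CKO) and from wild-type mice (WT), measured by bulk RNA sequencing. Its members are the 6 spleen CD8 libraries, chosen by their titles, out of 30 libraries in the series. CKO mice were CD4-Cre+ PRMT5fl/fl on the C57BL/6 strain and gave libraries numbered 65, 68 and 72. WT mice were labelled wild type on the same strain and gave libraries 67, 70 and 71. The numbers recur on the spleen CD4 libraries and were read as animal numbers. Cells were sorted by flow cytometry without a stated treatment, infection or immunisation, and age and sex are not in the labels. Cre under the CD4 promoter acts from the double-positive stage of the thymus, so spleen CD8 cells had passed that stage, and no group carried Cre without the floxed alleles. Effects of Cre and of the loss of Prmt5 therefore cannot be told apart. In bulk samples, more RNA per cell and more cells of one type also cannot be told apart, which holds for every level given here.

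PRMT5 is the main enzyme that places symmetric dimethyl marks on arginine, and its substrates include histones, the Sm proteins of the spliceosome and several signalling proteins. A naive CD8 T cell keeps the factors TCF-1 and LEF-1 and homes to lymph nodes through CCR7. After activation, T-bet, BLIMP-1 and ZEB2 drive it towards a cytotoxic effector cell, which is marked by KLRG1, stores granzymes and follows inflammatory chemokines into tissues.

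Levels are CPM, a gene's read count relative to the library's total count, scaled between libraries by the trimmed mean of M values. Each fold change is the log2 of CKO over WT and stands beside a standard error (SE). The SE was computed from the test, as the size of the log2 change over the square root of its F statistic. Every adjusted p was computed by edgeR (quasi-likelihood test) and adjusted by the Benjamini-Hochberg method over all genes tested. A gene was called at an adjusted p under 0.05, and every group had 3 libraries.

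Total counts ran from 25426449 to 27192847 per library, and no library stood apart in depth. Cd8a, the alpha chain of the co-receptor, held 1458, 1203 and 1166 CPM in CKO libraries, against 1232, 1154 and 1088 CPM in WT libraries, and was not called (log2 0.14 ± 0.09, adjusted p = 0.327). Of 11 markers of CD8 identity tested, edgeR called 0, with 5 at an unadjusted p under 0.05, and DESeq2 and limma each called 1 higher. Over all 13917 genes tested, edgeR gave 4209 an unadjusted p under 0.05. Cd4 was low in 5 libraries, at 2.59 to 3.10 CPM in CKO cells and 1.82 and 1.93 CPM in WT 67 and WT 70, but reached 13.5 CPM in WT 71. Its log2 of -0.98 (adjusted p = 0.342) turned to 0.63 without that library. Without scaling, spleen CD4 libraries held 860 to 982 CPM of it. Xist ran from 933 to 1490 CPM and Ddx3y from 0 to 0.221 CPM over the 6 libraries, without scaling. The first principal component held 47.9% of the variance and separated the genotypes, and the second, with 16.4%, set CKO 65 apart from the other two CKO libraries.

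The targeted transcript was lower in every CKO library. Prmt5 (chromosome 14, 54507182 to 54517470, GRCm38.p6) had 35.0, 29.1 and 41.6 CPM in CKO 65, 68 and 72, against 67, 61.1 and 64.7 CPM in WT 67, 70 and 71. The groups did not overlap, and the level in CKO cells was 35.2 ± 6.24 CPM against 64.3 ± 2.98 CPM in WT cells (SD, n = 3; log2 -0.87 ± 0.12, adjusted p = 8.29e-04). Over all 13917 genes tested, the groups did not overlap for 4910, so such a separation was common. Transcript remained in all CKO libraries, and counts per gene do not show which exons the reads covered. Of 110 tested genes within 5 Mb of Prmt5, 12 were called higher and 5 lower, or 15.5% together, against 16.1% of all genes.

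Among 18 tested arginine methyltransferases and their partners, 0 were called higher and 4 lower, Prmt5 included. Prmt3, which methylates a ribosomal protein, had 51.8, 47.5 and 51.3 CPM in CKO cells, against 75.5, 70.4 and 61.2 CPM in WT cells (log2 -0.46 ± 0.09, adjusted p = 6.38e-03). Mtap, which clears methylthioadenosine, an inhibitor of PRMT5, had 47.7, 45.4 and 49.5 CPM in CKO cells and 64.1, 62.8 and 57.9 CPM in WT cells (log2 -0.37 ± 0.08, adjusted p = 8.87e-03). Both were lower in all CKO libraries than in any WT library.

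Of 13917 genes tested, 1368 were called higher in CKO cells, which is 9.83% of them, and 866 lower, which is 6.22%. The higher genes moved further. Their median change was 0.68 on the log2 scale, and 470 of them passed a log2 of 1, whereas the lower genes had a median size of 0.47 and 73 passed it. With 1 library left out, fewer genes were called in 5 of 6 cases. The exception was CKO 65, without which 1320 were higher and 978 lower, and without CKO 68 there were 1255 and 851. Without CKO 72 there were 967 higher and 531 lower, without WT 67 there were 844 and 488, without WT 70 there were 939 and 472, and without WT 71 there were 853 and 462. The median over all genes tested was -0.01. These shares are the background against which each count of a gene list below is to be read, since the lists were chosen with earlier results of these data known. The plot of all genes shows the long arm of higher genes on its right side.

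**Figure D1:**
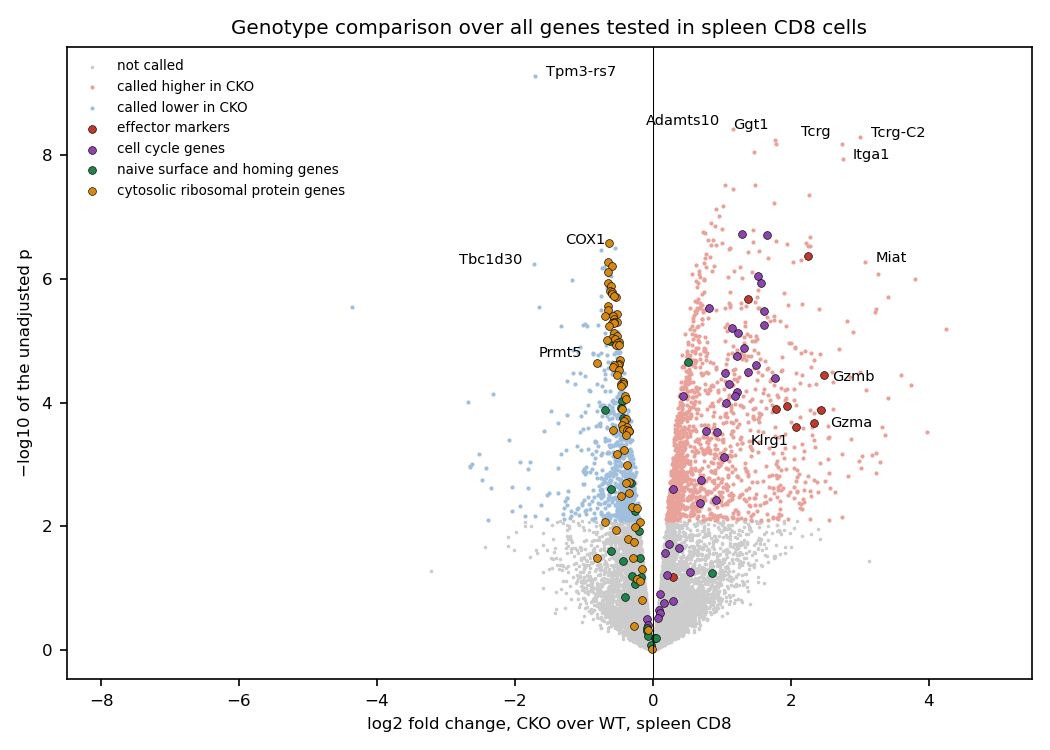
Log2 fold change of CKO over WT (horizontal) and −log10 of the unadjusted p (vertical) for all 13917 genes tested in spleen CD8 cells, with the members of 4 gene lists in colour. Effector markers lie to the right at log2 changes up to 2.48, and cytosolic ribosomal protein genes form a narrow column left of 0.

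The gene with the greatest increase among those chosen by size was Miat, a long noncoding RNA (chromosome 5, 112213228 to 112228948). It had 4.98, 5.89 and 5.94 CPM in CKO cells, against 0.483, 0.539 and 0.954 CPM in WT cells (log2 3.08 ± 0.29, adjusted p = 1.43e-04). Transcripts of the T cell receptor gamma locus followed. Tcrg-C2, a gamma constant region on chromosome 13 (19305060 to 19307551), had 23.5, 17 and 19.5 CPM in CKO cells, against 2.86, 2.08 and 2.48 CPM in WT cells (log2 3.01 ± 0.18, adjusted p = 1.55e-05). The record for the whole locus, Tcrg, which spans Tcrg-C2 so that reads between them could be split, had a log2 of 2.75 ± 0.17. Itga1, the alpha chain of the collagen receptor VLA-1 carried by tissue-dwelling T cells, had 12, 15.1 and 16.5 CPM in CKO cells, against 2.27, 2.20 and 1.98 CPM in WT cells (log2 2.75 ± 0.18, adjusted p = 2.03e-05).

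Other genes with large increases were Phlda3, a p53 target that restrains AKT (log2 2.91 ± 0.36), Ret, a receptor tyrosine kinase (log2 2.70 ± 0.36), and the transcription factor Klf12 (log2 2.62 ± 0.45). Rasgrp4, an activator of Ras, rose by 2.42 ± 0.33, Nhsl2 by 2.41 ± 0.27 and Cmklr1, the chemerin receptor, by 2.40 ± 0.41 on the same scale. In all of these the 3 CKO libraries lay above the 3 WT libraries, which was part of how they were chosen. Tcrg-C2 and Tcrg were also among the 6 higher genes with the smallest p-values. Of the other 4, Adamts10, a secreted metalloprotease, had 546, 593 and 520 CPM in CKO cells, against 248, 240 and 249 CPM in WT cells (log2 1.17 ± 0.07, adjusted p = 1.55e-05). Ggt1, a gamma-glutamyltransferase of glutathione breakdown, had 238, 246 and 185 CPM in CKO cells, against 61.5, 70 and 64.9 CPM in WT cells (log2 1.77 ± 0.11, adjusted p = 1.55e-05). Adcy6, an adenylyl cyclase, rose by 1.47 ± 0.09 and Gbp11, annotated as a transcribed pseudogene of the guanylate-binding family whose reads could be shared with its relatives, by 1.79 ± 0.11.

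Decreases were smaller among the genes chosen by size. Of all called genes, 116 rose and 14 fell by more than 2 on the log2 scale. None of these 14 met the conditions for that choice, which are given with the processing. Tbc1d30, a regulator of Rab GTPases (chromosome 10, 121263819 to 121351644), had 2.92, 3.41 and 3.09 CPM in CKO cells, against 11, 9.40 and 10.7 CPM in WT cells (log2 -1.72 ± 0.17, adjusted p = 1.51e-04). Tpm3-rs7, annotated as a pseudogene of the tropomyosin Tpm3 so that its reads may belong to Tpm3, had 67.3, 75.9 and 64.2 CPM in CKO cells, against 239, 220 and 215 CPM in WT cells (log2 -1.70 ± 0.08, adjusted p = 7.38e-06). Igf1r, the receptor for insulin-like growth factor, had 14.2, 21.7 and 24.5 CPM in CKO cells and 38.5, 48.3 and 55.9 CPM in WT cells (log2 -1.24 ± 0.19, adjusted p = 1.51e-03). The others of this set were Ramp3 (log2 -1.48 ± 0.26), Ntrk3, a neurotrophin receptor (log2 -1.37 ± 0.25), Ptk2, focal adhesion kinase (log2 -1.33 ± 0.16), Prss12 (log2 -1.15 ± 0.17), Art4 (log2 -1.13 ± 0.17), Mylpf (log2 -1.10 ± 0.23) and Zc3h6 (log2 -1.08 ± 0.15). Osbpl6 (log2 -1.37 ± 0.36) was no longer called without WT 67 (adjusted p = 0.0814) or WT 71 (adjusted p = 0.0898).

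The effector markers rose together. Of 9 tested, 8 were called higher and 0 lower, with a median log2 of 2.08 against -0.01 for all genes. Gzmb, granzyme B, which triggers apoptosis in target cells (chromosome 14, 56258836 to 56262334, 1.74 Mb from Prmt5), had 76.4, 54.4 and 117 CPM in CKO 65, 68 and 72, against 17.4, 20.7 and 6.29 CPM in WT 67, 70 and 71. Its level was 82.8 ± 32.0 CPM in CKO cells and 14.8 ± 7.56 CPM in WT cells (SD, n = 3; log2 2.48 ± 0.37, adjusted p = 1.28e-03). Klrg1, the inhibitory receptor that marks terminal effectors (chromosome 6, 122270596 to 122282833), had 16.6, 12 and 20.3 CPM in CKO cells, against 3.42, 6.62 and 1.53 CPM in WT cells (log2 2.08 ± 0.39, adjusted p = 4.66e-03). Cx3cr1, the fractalkine receptor of circulating effectors and a gene named after its values were seen, had 76.8, 28.5 and 69.9 CPM in CKO cells, against 10.9, 18.7 and 4.96 CPM in WT cells (log2 2.34 ± 0.43, adjusted p = 4.22e-03).

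The groups did not overlap for any of these genes, as for 4910 of all 13917 genes tested, and the order of the libraries was similar. CKO 68 was the lowest CKO library for all 3, WT 70 the highest WT library and WT 71 the lowest. Klrk1, which encodes the activating receptor NKG2D, had the smallest p of the list (85.1, 69.0 and 119 CPM in CKO cells, against 18.9, 24 and 14.5 CPM in WT cells; log2 2.25 ± 0.21, adjusted p = 1.35e-04). S1pr5, a sphingosine phosphate receptor of effector cells, rose by 1.95 ± 0.33 (adjusted p = 2.81e-03). The plot of levels by library shows these genes beside genes that fell or did not pass the test.

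**Figure D2:**
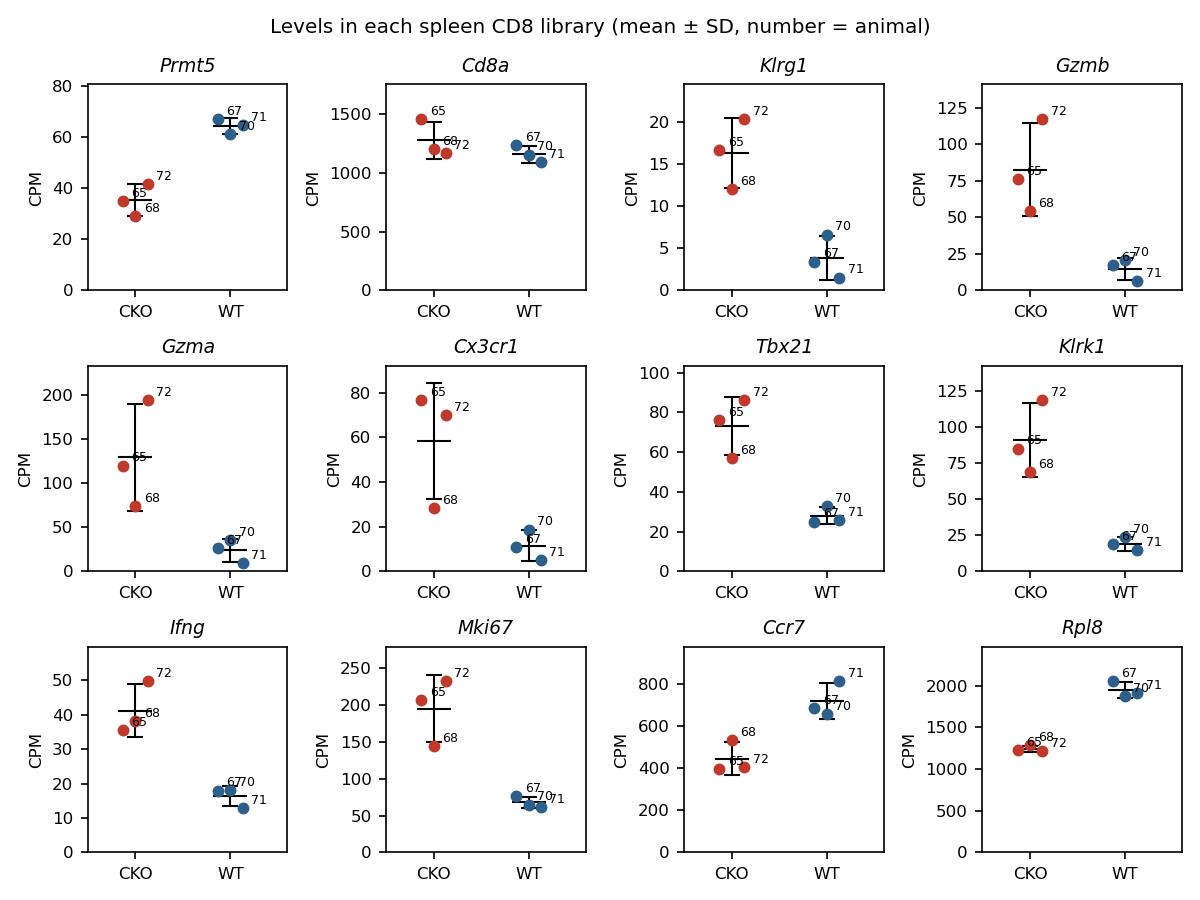
CPM of 12 genes in each spleen CD8 library, CKO (red) left of WT (blue), with mean ± SD over 3 libraries and the animal number beside each point. Gzmb spans 54.4 to 117 CPM in CKO and 6.29 to 20.7 CPM in WT libraries, while Cd8a overlaps between the genotypes.

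Promoter windows of Gzmb, Gzma, Cx3cr1 and Ifng were searched because the genes moved together and RUNX3 and T-bet are known regulators of effector genes. Sequences are shown only for the 3 windows that held the RUNX core given below, and that of Ifng held none. Each runs from 250 bases before the RefSeq start of the gene to 50 bases after it, 5′ to 3′ on the gene's strand, in build GRCm38.p6. Capitals mark the RUNX core TGTGGT on either strand, which 16.8% of 32851 promoter windows held.
Gzmb, chr14:56262285-56262584, minus strand: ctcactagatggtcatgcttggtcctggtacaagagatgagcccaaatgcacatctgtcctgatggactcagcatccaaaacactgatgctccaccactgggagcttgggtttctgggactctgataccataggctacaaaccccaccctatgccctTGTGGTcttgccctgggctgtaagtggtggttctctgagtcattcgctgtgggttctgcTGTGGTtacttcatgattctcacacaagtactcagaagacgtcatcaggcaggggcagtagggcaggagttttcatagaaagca
Gzma, chr13:113100932-113101231, minus strand: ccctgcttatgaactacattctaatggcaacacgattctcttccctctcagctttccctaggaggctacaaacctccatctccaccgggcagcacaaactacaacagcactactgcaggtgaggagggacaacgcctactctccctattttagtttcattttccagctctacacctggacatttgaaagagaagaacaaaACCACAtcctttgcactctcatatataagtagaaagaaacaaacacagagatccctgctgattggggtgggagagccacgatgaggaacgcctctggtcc
Cx3cr1, chr9:120068247-120068546, minus strand: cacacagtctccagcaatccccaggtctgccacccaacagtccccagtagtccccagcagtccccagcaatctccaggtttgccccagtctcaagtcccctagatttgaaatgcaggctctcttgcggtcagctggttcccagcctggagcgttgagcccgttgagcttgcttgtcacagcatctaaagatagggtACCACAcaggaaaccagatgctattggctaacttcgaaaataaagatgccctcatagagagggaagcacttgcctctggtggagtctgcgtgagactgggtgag

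The Gzmb window held 2 matches, starting 93 and 34 bases before the gene. Gzma held 1 match on the opposite strand, from 50 bases before the gene, and Cx3cr1 held 1 on the opposite strand, from 54 bases before. The window of Ifng held none. The T-box core GGTGTGA, searched on both strands and present in 3.98% of all windows, was in none of the 4. A match describes the letters of the window and is not a measured binding site. Runx3 itself had 6.17, 7.12 and 19.2 CPM in CKO cells, against 7.14, 5.35 and 5.65 CPM in WT cells, and did not pass the test (adjusted p = 0.154).

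Of 18 cytotoxic granule genes tested, 12 were called higher and 0 lower, with a median log2 of 0.41. Gzma, granzyme A, had 120, 74.3 and 195 CPM in CKO cells, against 26.5, 35.7 and 9.35 CPM in WT cells (log2 2.44 ± 0.42, adjusted p = 3.04e-03). Gzmk, granzyme K, had 33.4, 16.3 and 37.0 CPM in CKO cells, against 5.13, 9.90 and 4.65 CPM in WT cells (log2 2.14 ± 0.33, adjusted p = 1.57e-03), and Gzmm, granzyme M, rose by 1.48 ± 0.19 (adjusted p = 6.45e-04). The granzymes thus lay above WT in every CKO library, and 4910 of all 13917 genes tested were separated in one direction or the other. Stx11, a syntaxin needed for granule fusion, rose by 1.03 ± 0.17 (adjusted p = 2.70e-03) and Nkg7, a granule membrane protein, by 0.50 ± 0.08 (adjusted p = 2.70e-03). The call of Nkg7 was lost in a fit over all 12 spleen libraries (adjusted p = 0.0506).

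Of 13 effector cytokine and chemokine genes tested, 7 were called higher and 0 lower, with a median log2 of 0.98. Ifng, interferon gamma, had 35.6, 38.2 and 49.9 CPM in CKO cells, against 18, 18.2 and 12.9 CPM in WT cells (log2 1.33 ± 0.16, adjusted p = 4.33e-04). Fasl, the ligand of the death receptor FAS, had 42.6, 45.8 and 58.9 CPM in CKO cells, against 17.2, 20.5 and 13.5 CPM in WT cells (log2 1.52 ± 0.16, adjusted p = 2.40e-04). Ccl5, a chemokine stored by memory and effector CD8 cells, had 591, 449 and 662 CPM in CKO cells, against 163, 241 and 134 CPM in WT cells (log2 1.66 ± 0.20, adjusted p = 3.90e-04), and Ccl4 rose by 1.32 ± 0.17 (adjusted p = 5.88e-04). CKO 72 was the highest library for all 4 and WT 71 the lowest.

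Most killer lectin-like and NK-type receptors had positive estimates (19 positive and 4 negative). Of 23 tested, 12 were called higher and 1 lower, with a median log2 of 0.98. Klrc1, which encodes the inhibitory receptor NKG2A, had 49.7, 35.2 and 72.8 CPM in CKO cells, against 14.7, 13.7 and 12.2 CPM in WT cells (log2 1.95 ± 0.22, adjusted p = 3.23e-04). Its close relatives Klrc2 and Klrc3, among which reads could be split, rose by 1.46 ± 0.20 and 2.07 ± 0.27. Cd244, the receptor 2B4, rose by 2.34 ± 0.33 (adjusted p = 9.32e-04) and Cd160 by 0.83 ± 0.12 (adjusted p = 9.94e-04). The single lower member, named after its values were seen, was Klra6, a Ly49 receptor, with 3.29, 2.56 and 3.48 CPM in CKO cells, against 6.62, 5.70 and 6.98 CPM in WT cells (log2 -1.05 ± 0.20, adjusted p = 5.31e-03), and its call was lost in a fit over all 12 spleen libraries (adjusted p = 0.0699).

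Of 25 effector transcription factor genes tested, 11 were called higher and 0 lower, with a median log2 of 0.53. Tbx21, which encodes T-bet, had 76.0, 57.1 and 86.3 CPM in CKO cells, against 25, 32.9 and 25.9 CPM in WT cells (log2 1.39 ± 0.15, adjusted p = 2.87e-04). Prdm1, which encodes BLIMP-1, had 23.4, 23.9 and 40.6 CPM in CKO cells, against 10.5, 12.1 and 7.86 CPM in WT cells (log2 1.53 ± 0.22, adjusted p = 1.23e-03). Zeb2, a partner of T-bet in terminal effectors, rose by 1.79 ± 0.31 (adjusted p = 2.96e-03) and Rora by 1.0 ± 0.15 (adjusted p = 1.44e-03). The smallest p-values belonged to 2 factors of the Ikaros family. Ikzf3, Aiolos, had 593, 565 and 615 CPM in CKO cells, against 322, 359 and 368 CPM in WT cells (log2 0.76 ± 0.07, adjusted p = 1.35e-04), and Ikzf2, Helios, had 117, 131 and 127 CPM in CKO cells, against 56.0, 47.5 and 69.1 CPM in WT cells (log2 1.12 ± 0.12, adjusted p = 2.46e-04).

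Most genes of naive and central memory cells were not called. Of 24 naive and memory transcription factor genes, 6 were called lower and 2 higher, with a median log2 of -0.13. Without CKO 68, 4 were called higher, and without WT 70 or WT 71, 1. Lef1, which encodes LEF-1, had 454, 444 and 391 CPM in CKO cells, against 587, 596 and 575 CPM in WT cells (log2 -0.45 ± 0.07, adjusted p = 1.76e-03). Tcf7, which encodes TCF-1, had 993, 1006 and 847 CPM in CKO cells, against 1229, 1179 and 1299 CPM in WT cells (log2 -0.38 ± 0.08, adjusted p = 7.12e-03). Klf2, which drives expression of homing receptors, fell by 0.31 ± 0.07 on the log2 scale (adjusted p = 0.0107). Ezh2, the methyltransferase of the Polycomb repressive complex, was 1 of 2 higher members, with 57.7, 52.9 and 57.2 CPM in CKO cells and 37.8, 35.5 and 35.2 CPM in WT cells (log2 0.63 ± 0.08, adjusted p = 5.83e-04).

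Of 24 naive surface and homing genes, 8 were called lower and 1 higher, with a median log2 of -0.25. Ccr7, the lymph node homing receptor, had 393, 534 and 404 CPM in CKO cells, against 684, 654 and 813 CPM in WT cells (log2 -0.69 ± 0.12, adjusted p = 3.04e-03). S1pr1, which lets T cells leave lymphoid organs, had 414, 506 and 458 CPM in CKO cells, against 676, 699 and 740 CPM in WT cells (log2 -0.62 ± 0.08, adjusted p = 6.45e-04). Both chains of the interleukin-6 receptor fell, the signalling chain Il6st by 0.45 ± 0.07 and the ligand-binding chain Il6ra by 0.43 ± 0.08 on the log2 scale. Cd7 was the higher member (log2 0.51 ± 0.07, adjusted p = 9.92e-04). The count of lower genes in this list was 5 without WT 67 and 5 without WT 71. With no filter on low counts it was 13. The plot of gene lists shows how much narrower the spread of these genes was than that of the effector lists.

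**Figure D3:**
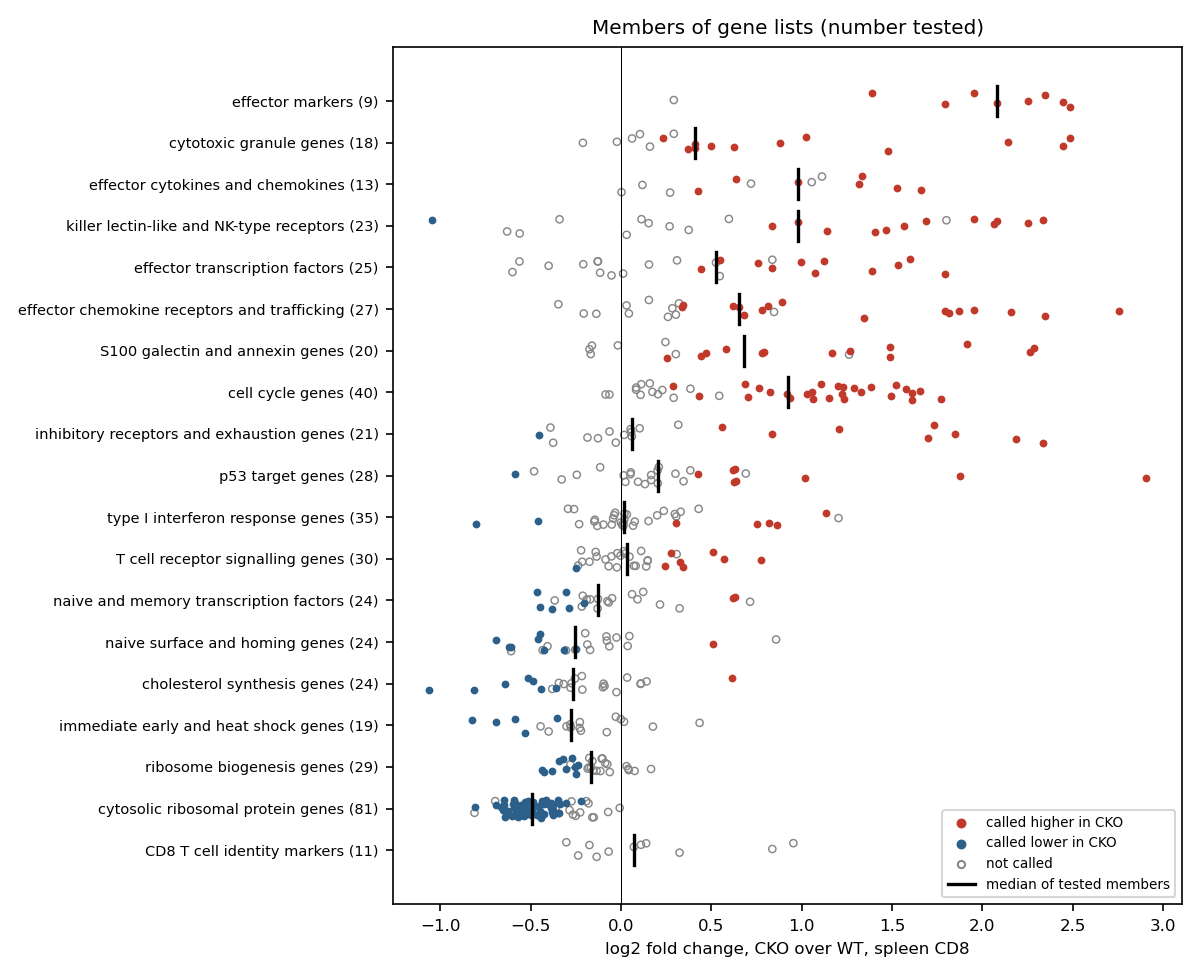
Log2 fold change of CKO over WT for each tested member of 19 gene lists (one row a list, number tested in brackets), with called genes filled and the median as a bar. Effector lists extend to the right up to 2.75, and ribosomal protein genes lie between -0.81 and -0.01.

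Of 27 effector chemokine receptor and adhesion genes tested, 16 were called higher and 0 lower, with a median log2 of 0.65. Itgax, which encodes CD11c, had 79.7, 55.4 and 84.1 CPM in CKO cells, against 15.6, 23 and 10.5 CPM in WT cells (log2 2.16 ± 0.24, adjusted p = 3.19e-04). Cd44, the activation marker, had 123, 122 and 152 CPM in CKO cells, against 78.3, 83.0 and 86.9 CPM in WT cells (log2 0.68 ± 0.09, adjusted p = 9.14e-04). Itgb2, the shared beta chain of leukocyte integrins, rose by 0.62 ± 0.07 (adjusted p = 3.49e-04). In these members no CKO library overlapped a WT library, as in 4910 of all 13917 genes tested.

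Of 20 S100, galectin and annexin genes and their companions tested, 13 were called higher and 0 lower, with a median log2 of 0.68. S100a6, a calcium-binding protein, had 55.5, 37.8 and 49.3 CPM in CKO cells, against 9, 12.1 and 8.58 CPM in WT cells (log2 2.26 ± 0.17, adjusted p = 5.28e-05). Lgals1, galectin-1, had 134, 105 and 135 CPM in CKO cells, against 45.8, 47.0 and 40.7 CPM in WT cells (log2 1.49 ± 0.11, adjusted p = 4.35e-05), and Lgals3, galectin-3, rose by 2.29 ± 0.20 (adjusted p = 1.12e-04). Ahnak, a large scaffold protein, had 2032, 2076 and 2501 CPM in CKO cells, against 937, 1037 and 974 CPM in WT cells (log2 1.16 ± 0.08, adjusted p = 4.46e-05). Anxa2 rose by 1.26 ± 0.12 (adjusted p = 1.52e-04).

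Most cell cycle genes rose. Of 40 tested, 27 were called higher and 0 lower, with a median log2 of 0.93 and 38 positive estimates. Mki67, the proliferation marker Ki-67, had 208, 145 and 233 CPM in CKO cells, against 76.5, 65.1 and 62.2 CPM in WT cells (log2 1.52 ± 0.15, adjusted p = 1.71e-04). Top2a, topoisomerase II of dividing cells, had 143, 112 and 152 CPM in CKO cells, against 59.1, 54.8 and 52.6 CPM in WT cells (log2 1.29 ± 0.11, adjusted p = 1.12e-04). The kinetochore gene Cenpf rose by 1.65 ± 0.14 (adjusted p = 1.12e-04), the spindle motor Kif11 by 1.57 ± 0.16 (adjusted p = 1.96e-04) and the spindle checkpoint kinase Bub1 by 1.61 ± 0.18 (adjusted p = 3.33e-04). CKO 68 was again the lowest CKO library for all 5. Foxm1, a factor of mitotic genes counted among the transcription factors above, had 22.3, 23.9 and 24.7 CPM in CKO cells, against 9.37, 12.1 and 12.3 CPM in WT cells (log2 1.07 ± 0.13, adjusted p = 4.43e-04).

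Some markers of other cells rose as well. Of 12 tested myeloid and dendritic markers, 6 were called higher and 0 lower (median log2 1.02), and the summed level of the whole list of 20 symbols was 57.5 to 94.5 CPM in CKO libraries, against 28.8 to 42.5 CPM in WT libraries. Without CKO 72, WT 70 or WT 71, 2 of 12 or 13 tested were called, and 3 of 13 without WT 67. A filter of 5 CPM in 3 libraries left 5 of them tested, of which 3 were called. Lyz2, a defining marker of macrophages and granulocytes, ran from 3.99 to 6.96 CPM without scaling in CKO libraries and from 2.42 to 3.94 CPM in WT libraries, and Csf1r from 5.37 to 12 CPM in CKO and from 2.53 to 5.91 CPM in WT libraries. Itgam, which encodes CD11b, had the smallest p of the list (15.5, 11.8 and 20.8 CPM in CKO cells, against 4.05, 6.20 and 2.94 CPM in WT cells; log2 1.87 ± 0.27, adjusted p = 1.18e-03). It also stands in the trafficking list, since effector T cells carry CD11b.

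Of 12 NK cell markers, 7 were called higher and 0 lower, and their summed level was 517 to 740 CPM in CKO libraries, against 336 to 404 CPM in WT libraries, most of it from genes that CD8 cells share, such as Nkg7 and Gzma. Without WT 71, 4 of 12 were called. A filter of 5 CPM in 3 libraries left 5 of them tested, of which 4 were called. Ncr1, which CD8 cells usually lack, had 1.51, 1.59 and 1.82 CPM in CKO cells, against 0.669, 0.578 and 0.267 CPM in WT cells (log2 1.69 ± 0.40, adjusted p = 0.0164), and its call was lost without CKO 72 (adjusted p = 0.0606) or WT 71 (adjusted p = 0.0629). Without scaling, Klrb1c ran from 7.69 to 13.1 CPM in CKO and from 3.13 to 5.74 CPM in WT libraries. Tyrobp ran from 2.05 to 2.81 CPM in CKO and from 0.831 to 1.11 CPM in WT libraries. Of 7 tested gamma delta and innate-like markers, 3 were called higher and 0 lower, and the list summed to 90.7 to 116 CPM in CKO libraries, against 37.4 to 41.7 CPM in WT libraries. Trdc, the delta constant region that defines gamma delta cells, was low in all 6 libraries, but every CKO library lay above every WT library. It had 0.701, 0.426 and 0.791 CPM in CKO cells, against 0, 0.154 and 0.0381 CPM in WT cells. Tcrg-C1 was at 0 in all 6 libraries and in all spleen CD4 libraries. Tcrg, the record for the whole gamma locus, had 51.4, 43.2 and 52.2 CPM in CKO cells, against 8.22, 5.16 and 8.43 CPM in WT cells. Whether reads of Tcrg-C1 were assigned to other records was not tested. Log2 values of the 7 tested markers ran from -0.13 to 3.24. Without CKO 65, 5 of 8 tested were called higher, and 6 of 10 with no filter on low counts. Without CKO 72, 2 of 7 were, and without WT 67 or WT 71, 2 of 8. Cd163l1, which encodes the scavenger receptor SCART1 of gamma delta cells, had 73.1, 79.9 and 56.1 CPM in CKO cells, against 24.8, 26.1 and 29.1 CPM in WT cells (log2 1.39 ± 0.13, adjusted p = 1.19e-04).

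Of 13 B cell markers tested, 1 was called higher. It was Cd22, an inhibitory receptor, with 34.4, 27.7 and 37.9 CPM in CKO cells, against 9.97, 12.7 and 11.7 CPM in WT cells (log2 1.54 ± 0.14, adjusted p = 1.18e-04). The defining B cell factor Pax5 had 2.51, 3.45 and 3.32 CPM in CKO cells, against 1.67, 2.46 and 1.79 CPM in WT cells, and was not called (log2 0.64 ± 0.26, adjusted p = 0.127). Of 10 markers of CD4 cells tested, 4 were called higher and 0 lower. Without CKO 65, CKO 68, WT 67 or WT 70, 2 were called higher. A filter of 5 CPM in 3 libraries left 6 of them tested, of which 2 were called higher. Zbtb7b, the helper lineage factor ThPOK, had 11.1, 7.63 and 13.3 CPM in CKO cells, against 4.87, 4.66 and 6.18 CPM in WT cells (log2 1.03 ± 0.22, adjusted p = 8.86e-03), and its call was lost without WT 67 (adjusted p = 0.0501). Without scaling, Foxp3 had 6.6, 5.1 and 4.1 CPM in CKO cells, against 2.0, 1.2 and 3.3 CPM in WT cells. Of 10 thymocyte markers tested, 3 were called higher and 0 lower, and Rag2 was at 0 in all 6 libraries. Without CKO 65, WT 70 or WT 71, 1 of that list was called higher. Most erythroid and platelet markers were too low to test, and Itga2b, the platelet integrin chain, was 1 of 2 called higher, with a log2 of 1.08 ± 0.15. The part that such cells had in the effector, NK-type and trafficking results was not tested.

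The CKO libraries had the same order in the effector and myeloid lists, while the order of the WT libraries differed. Relative to the mean of the WT libraries, effector markers averaged 2.0, 1.40 and 2.30 in CKO 65, 68 and 72 on a log2 scale with a pseudocount of 0.5 CPM, against 0.10, 0.56 and -0.66 in WT 67, 70 and 71. Myeloid markers averaged 0.91, 0.47 and 1.22 in the CKO libraries, against 0.24, 0.08 and -0.33 in the WT libraries. CKO 68 was thus lowest and CKO 72 highest of the CKO libraries in both lists, and WT 71, which held the most Cd4, was lowest in both. Gamma delta and innate-like markers had a different order, with 1.0, 1.04 and 0.80 in the CKO libraries.

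**Figure D4:**
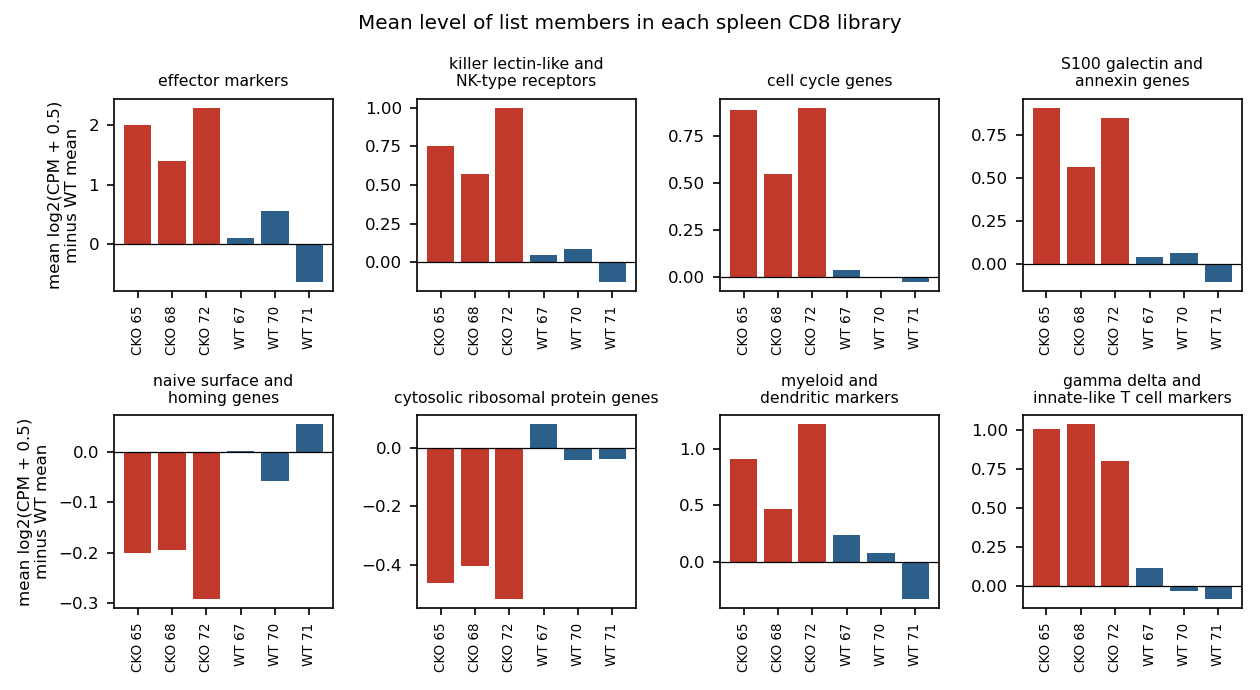
Mean log2(CPM + 0.5) of the tested members of 8 lists in each spleen CD8 library, minus the mean of the 3 WT libraries, with CKO in red and WT in blue. Effector markers are highest in CKO 72 at 2.30 and lowest in WT 71 at -0.66, and each panel has its own vertical scale.

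Among inhibitory and exhaustion genes, 8 of 21 tested were called higher and 1 lower, with a median log2 of 0.06. Pdcd1, which encodes PD-1, had 16.1, 8.60 and 13.2 CPM in CKO cells, against 2.71, 4.54 and 4.43 CPM in WT cells (log2 1.70 ± 0.26, adjusted p = 1.52e-03). Entpd1, the ectonucleotidase CD39, had 14.2, 10.6 and 19.7 CPM in CKO cells, against 4.57, 5.66 and 3.17 CPM in WT cells (log2 1.73 ± 0.25, adjusted p = 1.23e-03). Lilrb4a rose by 1.85 ± 0.22 (adjusted p = 4.22e-04) and Cd38 by 1.20 ± 0.20 (adjusted p = 2.23e-03). Lag3 had 11.9, 7.20 and 8.86 CPM in CKO cells, against 6.02, 8.36 and 8.05 CPM in WT cells, and the groups overlapped (adjusted p = 0.341). Of 20 costimulatory receptors, 3 were called higher and 0 lower, or 5 higher with DESeq2 and with no filter on low counts, led by Slamf7 with 68.1, 49.9 and 73.4 CPM in CKO cells, against 25.8, 27.1 and 25.2 CPM in WT cells (log2 1.29 ± 0.13, adjusted p = 1.76e-04).

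Receptors for cytokines moved both ways. Of 17 tested inflammatory cytokine receptors, 5 were called higher and 3 lower. Il12rb2, the signalling chain of the interleukin-12 receptor, had 14.4, 15.6 and 24 CPM in CKO cells, against 6.06, 5.20 and 4.65 CPM in WT cells (log2 1.76 ± 0.21, adjusted p = 3.77e-04), and its partner Il12rb1 rose by 0.75 ± 0.10 (adjusted p = 7.98e-04). Both chains of the interleukin-18 receptor rose, Il18r1 by 0.71 ± 0.08 and Il18rap by 1.09 ± 0.15. Ifngr2, a chain of the interferon gamma receptor, had 42.7, 63.3 and 41.9 CPM in CKO cells, against 81.3, 94.8 and 130 CPM in WT cells (log2 -1.05 ± 0.19, adjusted p = 3.52e-03).

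Of 25 common gamma chain receptor and kinase genes, 9 were called higher and 4 lower. Without WT 67, WT 70 or WT 71, 4, 3 and 5 were called higher, and 2 lower in each case. Il2rb, the beta chain shared by the receptors for interleukins 2 and 15, had 808, 923 and 1043 CPM in CKO cells, against 614, 679 and 668 CPM in WT cells (log2 0.50 ± 0.09, adjusted p = 3.69e-03). Socs2, a feedback inhibitor induced by STAT5, had 3.25, 3.18 and 5.46 CPM in CKO cells, against 0.260, 0.501 and 0.343 CPM in WT cells (log2 3.41 ± 0.37, adjusted p = 2.76e-04). Il21r, the interleukin-21 receptor, fell by 0.56 ± 0.10 on the log2 scale (adjusted p = 3.36e-03).

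Interferon response genes did not move together. Irf9, a component of the factor that type I interferon activates, had 96.8, 93.7 and 113 CPM in CKO cells, against 132, 151 and 135 CPM in WT cells (log2 -0.46 ± 0.09, adjusted p = 5.92e-03). Usp18, an inhibitor of the type I receptor, had 41.9, 42.1 and 71.8 CPM in CKO cells, against 27.2, 23.3 and 20.4 CPM in WT cells (log2 1.14 ± 0.20, adjusted p = 3.18e-03). Over the type I list, 5 of 35 genes were called higher and 2 lower, with a median log2 of 0.02, and 2 were called higher without CKO 72, WT 67 or WT 71, 3 without WT 70 and 9 with no filter on low counts. A list of GTPases and guanylate-binding proteins of the interferon gamma response was put together after these data were seen. In it, 4 of 34 were called higher and 7 lower, with 4 lower without WT 67. With no filter on low counts, 11 of 38 tested were lower. Gbp9 rose by 0.64 ± 0.07 and Gbp4 by 0.58 ± 0.07, while Irgm1, an immunity-related GTPase, had 40.5, 33.9 and 48.5 CPM in CKO cells, against 82.6, 85.6 and 75.1 CPM in WT cells (log2 -0.99 ± 0.12, adjusted p = 4.43e-04).

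Of 30 T cell receptor signalling genes, 7 were called higher and 1 lower, with a median log2 of 0.03. Lck, the kinase that starts the signal, had 731, 767 and 714 CPM in CKO cells, against 469, 391 and 431 CPM in WT cells (log2 0.78 ± 0.08, adjusted p = 1.52e-04). Ptprc, which encodes CD45, had 4713, 5170 and 4954 CPM in CKO cells, against 3346, 3278 and 3375 CPM in WT cells (log2 0.57 ± 0.06, adjusted p = 1.68e-04), and Plcg1 rose by 0.51 ± 0.07 (adjusted p = 8.65e-04). Without CKO 72, WT 70 or WT 71, 4 of them were called higher, and without CKO 65, 4 were called lower.

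Of 28 p53 targets, 8 were called higher and 1 lower, with a median log2 of 0.20, and with limma or with no filter on low counts 3 were lower. Phlda3 had 5.09, 4.38 and 6.21 CPM in CKO cells, against 1.15, 0.385 and 0.534 CPM in WT cells (log2 2.91 ± 0.36, adjusted p = 5.28e-04). Psrc1 rose by 1.88 ± 0.26 (adjusted p = 8.73e-04), Zmat3, a splicing regulator downstream of p53, by 0.62 ± 0.09 (adjusted p = 9.61e-04) and Bax, a pore-forming killer protein, by 0.64 ± 0.10 (adjusted p = 1.89e-03). Btg2 went the other way, with 199, 234 and 247 CPM in CKO cells, against 350, 298 and 372 CPM in WT cells (log2 -0.59 ± 0.10, adjusted p = 2.90e-03). Of 24 BCL2 family and survival genes, 5 were called higher and 0 lower, or 8 higher without CKO 68 and 8 with no filter on low counts, among them Bcl2l1, the survival protein BCL-XL (log2 0.60 ± 0.10, adjusted p = 2.70e-03).

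Most genes of the cytosolic ribosome fell. In a list of cytosolic ribosomal protein genes, put together after these data were seen, 66 of 81 tested were called lower and 0 higher, with a median log2 of -0.49 and 81 negative estimates. Rpl8 had 1222, 1286 and 1217 CPM in CKO cells, against 2057, 1871 and 1906 CPM in WT cells (log2 -0.65 ± 0.06, adjusted p = 1.43e-04). Rpsa, which was chosen for its small p, had 1788, 1847 and 1818 CPM in CKO cells, against 2881, 2709 and 2831 CPM in WT cells (log2 -0.63 ± 0.06, adjusted p = 1.12e-04), and Rplp0, an acidic stalk protein, fell by 0.59 ± 0.06. Ribosomal protein genes have many processed pseudogenes, so reads could be shared with them. Together they took 37372 to 40380 CPM in CKO libraries, against 53044 to 58047 CPM in WT libraries, without scaling. When the scaling factors were set without ribosomal protein and mitochondrial mRNAs, an alternative chosen after the data were seen, 68 of them were called lower.

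Of 29 ribosome biogenesis genes, 10 were called lower and 0 higher, with a median log2 of -0.17. Npm1, a nucleolar chaperone, had 547, 644 and 566 CPM in CKO cells, against 846, 770 and 763 CPM in WT cells (log2 -0.44 ± 0.08, adjusted p = 3.37e-03). Between 3 and 6 of this list were called lower without CKO 65, CKO 72, WT 67, WT 70 or WT 71. Among mitochondrially encoded mRNAs, 2 of 12 were called lower and 0 higher. COX1 had 7292, 7462 and 7302 CPM in CKO cells, against 10748, 10734 and 10764 CPM in WT cells (log2 -0.55 ± 0.05, adjusted p = 1.16e-04). Of 76 nuclear genes of the respiratory complexes, 4 were called lower and 1 higher, and 2 lower without CKO 72 or WT 71. Core spliceosome genes, some of whose proteins PRMT5 methylates, had 6 of 34 called higher and 0 lower, led by Snrnp200 (log2 0.52 ± 0.07, adjusted p = 8.73e-04) and Prpf3 (log2 0.62 ± 0.10, adjusted p = 1.79e-03). Without WT 70 or WT 71, 3 of them were called.

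Of 24 cholesterol synthesis and uptake genes, 7 were called lower and 1 higher, with a median log2 of -0.26. Srebf2, the transcription factor of the pathway, had 202, 209 and 176 CPM in CKO cells, against 283, 278 and 278 CPM in WT cells (log2 -0.52 ± 0.08, adjusted p = 1.23e-03). Sqle, squalene epoxidase, fell by 0.82 ± 0.16 (adjusted p = 6.78e-03). Abca1, which exports cholesterol, was the higher member, with 120, 126 and 134 CPM in CKO cells, against 71.7, 95.7 and 80.9 CPM in WT cells (log2 0.61 ± 0.10, adjusted p = 2.45e-03). The count of lower genes was 4 without WT 71.

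Of 19 immediate early and heat shock genes, 5 were called lower and 0 higher, led by Junb with 1204, 1385 and 1357 CPM in CKO cells, against 1778, 1965 and 1951 CPM in WT cells (log2 -0.53 ± 0.07, adjusted p = 8.29e-04). Egr3 had 23.6, 23.4 and 24.2 CPM in CKO cells, against 28.7, 40.8 and 56.5 CPM in WT cells (log2 -0.82 ± 0.19, adjusted p = 0.0153), and its call was lost without CKO 72 (adjusted p = 0.0522). The list had 11 lower genes of 22 tested with no filter on low counts and 3 of 19 without CKO 65. Glycolysis genes had 2 of 21 called higher and 1 lower, and none in either direction without CKO 72, WT 67 or WT 71. Of 8 genes of the GIMAP family of lymphocyte GTPases, 2 were called lower and 1 higher, and without CKO 65 there were 4 lower, and without WT 67 or WT 70 there was 1. Of 24 tested replication-dependent histone genes, 1 was called higher, and 0 without CKO 68, CKO 72, WT 67 or WT 70.

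The spleen CD4 libraries, of the same animal numbers and in the same table, were set beside these results. There 8.53% of 14292 genes were called higher in CKO and 5.63% lower. The question was where the genotype effect in CD8 cells differed from that in CD4 cells, tested as an interaction over 12 libraries. Of 14958 genes, 271 (1.81%) had a more positive effect in CD8 cells and 112 (0.749%) a more negative one. With the animal as a replicate block the counts were 672 (4.49%) and 411 (2.75%). Leaving out both libraries of 1 animal gave 154 and 27 without CKO 72, 131 and 34 without WT 67, 158 and 36 without WT 70, and 134 and 52 without WT 71. It gave 218 and 46 without CKO 68, and 381 and 175 without CKO 65.

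The fall in Prmt5 transcript did not differ detectably, at a log2 of -0.87 ± 0.12 in CD8 cells and -0.97 ± 0.10 in CD4 cells (difference 0.10 ± 0.17, adjusted p = 0.897). Deletion of the gene itself was not measured in either population. Of the genes with the greatest positive difference, Itga1 was at 2.75 ± 0.18 in CD8 cells and -0.72 ± 0.41 in CD4 cells (difference 3.47 ± 0.45, adjusted p = 6.82e-04). Miat was at 3.08 ± 0.29 in CD8 cells and -0.04 ± 0.55 in CD4 cells (difference 3.12 ± 0.72, adjusted p = 0.0319). Gzmk was at 2.14 ± 0.33 in CD8 and -0.64 ± 0.43 in CD4 cells (difference 2.77 ± 0.60, adjusted p = 0.0217), and Serpina3g, a serine protease inhibitor of activated T cells, at 2.25 ± 0.20 in CD8 and -0.53 ± 0.14 in CD4 cells (difference 2.77 ± 0.27, adjusted p = 1.50e-04). For Pak6 and Lag3 the difference came with CD4 values of -2.69 ± 0.64 and -2.50 ± 0.28, and neither was called in CD8 cells. The difference was not called for Miat without CKO 68, CKO 72, WT 67 or WT 70 (adjusted p = 0.109, 0.164, 0.254 and 0.160). For Gzmk it was not called without CKO 72, WT 67 or WT 71 (adjusted p = 0.107, 0.198 and 0.108), and for Pak6 without WT 67 (adjusted p = 0.0924).

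Of the genes with the greatest negative difference, Lrrc75b was at -0.07 ± 0.12 in CD8 cells and 1.83 ± 0.16 in CD4 cells (difference -1.90 ± 0.21, adjusted p = 2.38e-04). Rcn3 was at 0.04 ± 0.10 in CD8 and 1.54 ± 0.19 in CD4 cells (difference -1.51 ± 0.18, adjusted p = 3.83e-04). Pcsk1 (difference -1.79 ± 0.37), Cdr2l (difference -1.59 ± 0.39), Plekha6 (difference -1.50 ± 0.29) and Slc6a19 (difference -1.47 ± 0.30) likewise were not called in CD8 cells, and for these 4 the difference was lost in the absence of 3 to 5 of the 6 animals. Their adjusted p without WT 67 was 0.112 for Pcsk1, 0.0924 for Cdr2l, 0.0543 for Plekha6 and 0.0789 for Slc6a19. Without CKO 72, Lrrc75b had a CD8 estimate of 0.02, and Rcn3 had -0.05 without CKO 65 and -0.03 without WT 70. Ggt1 was higher in both populations, at 1.77 ± 0.11 in CD8 and 2.79 ± 0.11 in CD4 cells (difference -1.02 ± 0.16, adjusted p = 2.72e-03).

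Among the lists, effector transcription factors had 8 of 25 with a more positive effect in CD8 cells and 0 with a more negative one, or 16 and 1 with the animal as a block. Helios (Ikzf2) was at 1.12 ± 0.12 in CD8 and -0.67 ± 0.10 in CD4 cells (difference 1.79, adjusted p = 1.50e-04), and T-bet (Tbx21) at 1.39 ± 0.15 in CD8 and -0.45 ± 0.26 in CD4 cells (difference 1.83, adjusted p = 9.92e-03). The difference in Tbx21 was not called without CKO 72, WT 67 or WT 71 (adjusted p = 0.0781, 0.0731 and 0.0674). Cytokine genes had 4 of 13 more positive in CD8 cells, or 8 with the block, and Ifng was called in opposite directions, at 1.33 ± 0.16 in CD8 and -0.85 ± 0.19 in CD4 cells (difference 2.17, adjusted p = 6.44e-04). Fasl was as well, at 1.52 ± 0.16 in CD8 and -0.59 ± 0.12 in CD4 cells (difference 2.12, adjusted p = 1.50e-04). Naive surface and homing genes had 9 of 24 with a more negative effect in CD8 cells, or 16 with the block. Klf2 was at -0.31 ± 0.07 in CD8 and 0.35 ± 0.08 in CD4 cells (difference -0.66, adjusted p = 2.57e-03).

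Among the genes that named the effector state, the call of a difference depended on the block for Gzmb, Cx3cr1 and Gzma. Gzmb was at 2.48 ± 0.37 in CD8 and 1.20 ± 0.34 in CD4 cells, and the difference of 1.27 ± 0.59 did not pass the test (adjusted p = 0.391) but passed with the animal as a block (adjusted p = 9.96e-03). Cx3cr1 did the same, with a difference of 1.10 (adjusted p = 0.650, and 4.46e-03 with the block), as did Gzma (difference 0.87, adjusted p = 0.664, and 0.0301 with the block). Klrg1 was at 2.08 ± 0.39 in CD8 and 1.72 ± 0.19 in CD4 cells, and its difference of 0.36 ± 0.48 passed in neither fit (adjusted p = 0.862, and 0.457 with the block). Cell cycle genes had 1 of 40 more positive in CD8 cells, or 16 with the block. Cytosolic ribosomal protein genes had 15 of 81 more negative in CD8 cells, or 45 with the block. The block uses the same libraries, so these fits are not independent of each other.

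**Figure D5:**
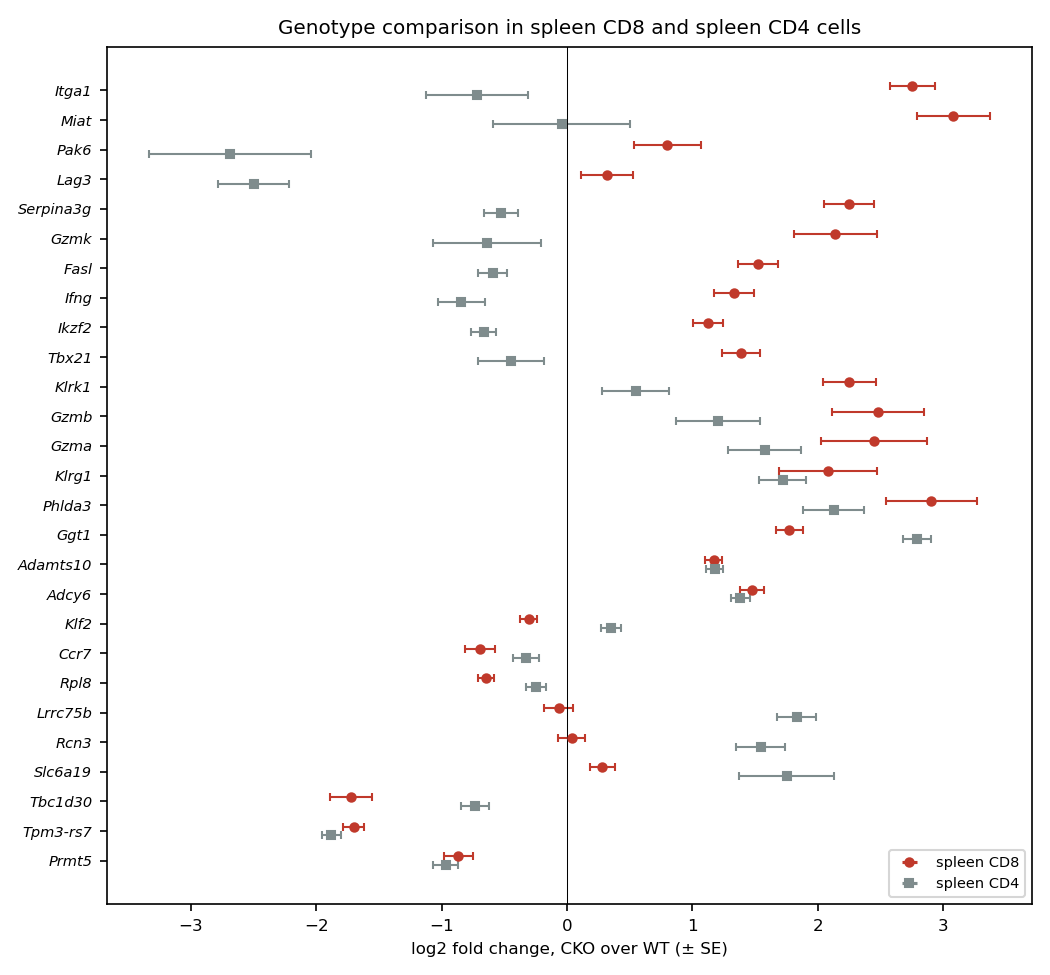
Log2 fold change of CKO over WT with its SE for 27 genes in spleen CD8 cells (red circles) and spleen CD4 cells (grey squares). Itga1, Serpina3g, Ifng and Fasl lie right of 0 in CD8 and left of 0 in CD4, Adamts10 and Prmt5 lie close together in both, and Lrrc75b and Rcn3 lie near 0 in CD8 and right of 0 in CD4.

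The CD8 single-positive cells of the thymus, the stage before export, were counted in another table and from other libraries, so only fold changes are set side by side. There 5 of 14911 genes (0.0335%) were called higher in CKO and 12 (0.0805%) lower. Prmt5 was called lower there, at a log2 of -0.31 ± 0.05 in the thymus (adjusted p = 0.0450), against -0.87 ± 0.12 in the spleen. Gzmb was at -0.20 ± 0.24 in the thymus, Gzma at 0.04 ± 0.09, Itga1 at 0.05 ± 0.29, Adamts10 at 0.15 ± 0.07 and Ggt1 at 0.52 ± 0.13, and none of these 5 passed the test there. Klrg1 and Miat were too low in the thymus libraries to test. A test of the difference between spleen and thymus was not made.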

How the data were processed

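RNA of flow-sorted cells was sequenced from poly(A)-selected, strand-marking libraries, per the labels' protocols. The authors deposited raw read counts per gene symbol, and the submitters' processing notes name HISAT2, HTSeq and GRCm38. Tool versions, gene annotation and strand setting were not given in the sources used here, so a gene and its antisense partner may share reads. The deposited table lists 46095 symbols, and total counts per spleen CD8 library ran from 25426449 to 27192847.

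Counts were filtered by filterByExpr, scaled by the trimmed mean of M values and tested with edgeR 4.0.16 in R 4.3.3 (quasi-likelihood test, Benjamini-Hochberg adjustment, threshold 0.05), after a check on simulated data. DESeq2 1.42.0 and limma 3.58.1 were alternatives. The 6 spleen CD8 libraries were fitted alone, and the CD8-minus-CD4 difference over 12 libraries without a block. Nothing in the labels names separate cultures or litters, so p-values measure the spread between these samples. Counts of replicate libraries differed by more than sampling noise (chi-square over degrees of freedom 6.39 to 22.9). Deviations from group means correlated at 0.0989 to 0.317 between CD8 and CD4 libraries of the same number and at -0.187 to 0.0109 otherwise. The shared numbers in the titles were read as animals, so blocked values stand beside results they change.

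Members and lists were chosen with earlier results of these data known. The 5 lists of ribosomal protein, mitochondrial, respiratory complex, interferon gamma GTPase and histone genes, and the scaling without ribosomal protein and mitochondrial mRNAs, were added after the data were seen. Named genes are Prmt5, Cd8a, Cd8b1, Cd4, Klrg1 and Gzmb, the 12 with the largest change per direction (at least 5 mean CPM in the higher group, no overlap), the 6 with the smallest p per direction, the 6 with the largest CD8-minus-CD4 difference per direction, and 2 to 6 members of each list with the smallest p. Gene models, variable and joining segments and pseudogene symbols ending in -ps were left out. Cell type markers given as levels and genes marked in the text fall outside this rule, and some genes it selects are not reported here. Coordinates are from RefSeq GRCm38.p6, matched by symbol for 12988 tested genes and by synonym for 481, and promoter sequences are from RefSeq.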

Additional observations from a re-analysis of the deposited data

Results flagged for a closer look

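For 47 genes given above, the genotype effect in spleen CD8 cells differed from that in spleen CD4 cells in edgeR's test of the interaction over 12 libraries. Values are the log2 fold change of CKO over WT in CD8 cells minus that in CD4 cells, so a positive value is a more positive effect in CD8 cells. Among genes of granules, killing and cytokines, the difference was 2.12 for Fasl, 2.17 for Ifng, 2.77 for Gzmk, 1.30 for Gzmm and 1.90 for Stx11. Among receptors of the NK type and of costimulation or inhibition, it was 1.70 for Klrk1, 1.78 for Klrc2, 1.66 for Cd160, 1.67 for Slamf7, 2.76 for Pdcd1, 2.11 for Entpd1 and 2.82 for Lag3. Among transcription regulators, it was 1.83 for Tbx21, 1.68 for Prdm1, 1.18 for Rora, 1.79 for Ikzf2, 0.45 for Ikzf3, 0.68 for Ezh2, -0.41 for Lef1 and -0.66 for Klf2. Among trafficking and homing genes, it was 3.47 for Itga1, 1.04 for Cd44 and -0.54 for Il6ra. Among cytokine receptors and their feedback, it was 0.91 for Il12rb1, 2.63 for Il12rb2, 0.84 for Il2rb and 3.30 for Socs2. Among S100, annexin and related genes, it was 1.75 for S100a6, 1.06 for Anxa2 and 1.07 for Ahnak. Among survival and translation genes, it was 0.70 for Bcl2l1, -0.40 for Rpl8 and -0.41 for Rplp0. Among receptor gamma transcripts, whose reads overlap, it was 2.48 for Tcrg and 2.34 for Tcrg-C2. Among the remaining genes with a more positive effect in CD8 cells, it was 3.12 for Miat, 3.48 for Pak6, 2.77 for Serpina3g and 2.66 for Cd22. Among the remaining genes with a more negative effect, it was -1.90 for Lrrc75b, -1.79 for Pcsk1, -1.59 for Cdr2l, -1.51 for Rcn3, -1.50 for Plekha6, -1.47 for Slc6a19, -1.02 for Ggt1 and -0.99 for Tbc1d30. Of the 47, 24 were called under every alternative that gave a value, animals left out included.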

How the results depend on the processing

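Prmt5 was called lower in CKO cells under all 13 alternatives, with log2 values of -1.0 to -0.75 when 1 library was left out. Of 122 other genes called in spleen CD8 and named here, 115 were called under every alternative that gave a value. The count of higher genes (1368) was 844 to 1320 and that of lower genes (866) was 462 to 978 when 1 library was left out, and both stayed within 1.5 times under every other setting. The count of genes with a more positive effect in CD8 than in CD4 cells (271) was 672 with the animal as a replicate block, 429 with DESeq2 and 574 with no filter on low counts. That with a more negative effect (112) was 411 with the replicate block, 208 with DESeq2 and 270 with no filter. Leaving out 1 animal gave 131 to 381 and 27 to 175. The block ended no call among the 47 genes with a difference and changed those of Gzmb, Gzma and Cx3cr1 given above. No paired fit exists within CD8, since CKO and WT share no animal. Among uncalled genes, log2 values with 1 library left out crossed 0 for 3. They ran from -1.41 (without WT 67) to 0.63 (without WT 71) for Cd4, from -0.21 (without CKO 65) to 0.0196 (without CKO 72) for Lrrc75b, and from -0.0539 (without CKO 65) to 0.12 (without WT 67) for Rcn3. The cause of these changes was not tested, beyond the fewer libraries that each such fit holds. Levels under about 1 CPM, such as those of Trdc in every library and of Ncr1 in WT libraries, rest on few reads per library.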
